A study of Mus musculus with 14 samples.

Results

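The genes described here encode the proteins of the cytosolic ribosome. They were chosen by name, with the regular expression ^Rp[ls](p[0-2]|[0-9]+[ax]?)$, and where a gene had several probes the 1 with the highest mean signal over the 14 arrays stood for it. The scanner files used here held no column of gene names (0 of 14 files), so the names came from the RefSeq accession of each probe. Of 75 gene symbols with such a name, 74 had a probe (Rpl37 had none), among 27056 features tested in all. The 74 members were 45 genes of the large subunit, the P stalk included, and 29 of the small subunit. They had 157 probes: 24 members had 1 probe and 50 had several. All 74 members were well above background on all 14 arrays, and no member was saturated or lost a value.

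A ribosome is built from ribosomal RNA and one copy of most of these proteins, so the genes are transcribed at high levels and tend to move together. Their mRNAs start with a pyrimidine tract, the 5′ TOP (terminal oligopyrimidine) sequence, through which the kinase mTORC1 and the RNA-binding protein LARP1 set their translation and stability. The family also touches p53. When ribosome assembly fails, free Rpl5 and Rpl11 bind Mdm2, the ubiquitin ligase of p53, and p53 accumulates. In mice, loss of Rpl22 blocks the development of alpha-beta T cells through p53, and in human T cell acute lymphoblastic leukemia RPL5, RPL10, RPL11 and RPL22 are found mutated.

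Cells were sorted from the thymus of lethally irradiated mice that had received bone marrow of C57BL/6 background, all of it carrying Cre-ERT2, a recombinase switched on by tamoxifen. The groups were leukemic Ezh2Δ/Δp53Δ/Δ cells of the DN2 gate from 2 mice with ETP-ALL (early T cell precursor leukemia, mice 13 and 19), and non-leukemic Ezh2Δ/Δp53Δ/Δ (both genes floxed), p53Δ/Δ, Ezh2Δ/Δ and WT (Cre-ERT2 alone) cells. Deletion was induced at 4 weeks and the non-leukemic cells were taken at 3 months after transplantation, in 3 successive early stages, with 1 array per genotype and stage. DN1 cells carry CD44 without CD25, DN2 cells carry both markers, and DN3 cells carry CD25 without CD44. Whether the 3 stages of a genotype came from different mice is not stated, so a p-value between genotypes measures only the agreement of 3 stages, whose spread may be technical. The text on treatment mentions bone marrow sorting, whereas the design names the thymus, which was followed here.

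The arrays lay on 4 slides. Slide 1 held the WT arrays and the Ezh2Δ/Δp53Δ/Δ DN2 and DN3 arrays, slide 2 all Ezh2Δ/Δ and p53Δ/Δ arrays, slide 3 the Ezh2Δ/Δp53Δ/Δ DN1 array and slide 4 both ETP-ALL arrays. The slide 2 arrays stood apart: the 75th percentile of their signal was 61.3 to 123, against 271 to 524 on the other 8 arrays. The Trp53 probe read log2 -5.86 and -3.29 in ETP-ALL, -3.86 to -0.48 in Ezh2Δ/Δp53Δ/Δ and -5.34 to -3.49 in p53Δ/Δ cells, against 0.68 to 1.68 in Ezh2Δ/Δ and 0.11 to 1.28 in WT cells. The Trp53 probe was well above background on 10 of 14 arrays, so some p53-deleted arrays were among them. In Ezh2Δ/Δp53Δ/Δ cells it read -3.86, -2.40 and -0.48 at DN1, DN2 and DN3. Below, "without p53" names the genotype. The Ezh2 probe, at 2.36 to 4.43 over all arrays, did not separate the genotypes, and its position on the transcript is not known here, so it does not check the deletion. Of 15 T-lineage and DN markers, 14 or 15 were well above background on every array.

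The start sequences show what the family shares beyond its name. RefSeq (GRCm38.p6) gave sequence around a transcription start for 54 members. Within 15 bases of the start, a C followed by at least 4 bases that are each C or T stood on the sense strand in 37 of these 54 members (68.5%), against 40.3% of 27025 genes. The hexamer CGGAAG, on either strand of the 300 bases from 250 before to 50 after the start, was found in 37 of 54 members (68.5%), against 18.8% of genes. CACGTG, which reads the same on both strands, was found in 6 of 54 members (11.1%), against 8.09% of genes. Some genes have several starts in that table, and over start windows the shares were 60.9% against 36.4% for the tract, 60.9% against 16.9% for CGGAAG and 12.5% against 7.15% for CACGTG. The windows below run from 15 bases before to 15 bases after a start, with the longest such tract in capitals where there is one. The first 5 belong to members with low values in Ezh2Δ/Δp53Δ/Δ cells, the next 4 to members among those that differed least on the probe used, and the last to Rpl22l1, a paralogue outside the family rule.
Rpl35a, chr16:33056467-33056496, + strand: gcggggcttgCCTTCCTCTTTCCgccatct
Rpl24, chr16:55966260-55966289, + strand: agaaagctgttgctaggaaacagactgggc
Rpl39, chrX:37085208-37085237, - strand: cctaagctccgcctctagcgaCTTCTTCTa
Rpl37a, chr1:72711245-72711274, + strand: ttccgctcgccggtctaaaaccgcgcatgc
Rpl34, chr3:130730323-130730352, - strand: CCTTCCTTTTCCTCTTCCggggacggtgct
Rpl19, chr11:98026909-98026938, + strand: tgggCTCTCCCCTTCgcagataatgggcgg
Rpl22, chr4:152324421-152324450, + strand: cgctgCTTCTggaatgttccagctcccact
Rpl7a, chr2:26910792-26910821, + strand: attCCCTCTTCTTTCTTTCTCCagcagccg
Rpl28, chr7:4792950-4792979, + strand: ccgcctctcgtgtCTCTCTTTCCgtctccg
Rpl22l1, chr3:28805493-28805522, + strand: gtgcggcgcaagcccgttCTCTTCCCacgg
The windows of Rpl24 and Rpl37a held no such tract, while those of Rpl35a, Rpl39 and Rpl34 and of the 4 little changed members did. For a gene with several starts, the window shown is the one with the longest tract. Rpl35a had 3 starts and Rpl34, Rpl19 and Rpl22 had 2 each, while Rpl24 and Rpl37a had 1 each. That choice favours a tract in genes with more starts. The genes were also picked for their values, so the windows are a description.

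Values are log2 of the processed signal minus the 75th percentile of its array, so a difference of 1 is a doubling of signal relative to that percentile. The median member stood at 9.16 and 9.11 in the ETP-ALL arrays of mice 13 and 19. At DN1, DN2 and DN3 it stood at 8.95, 8.98 and 9.09 in Ezh2Δ/Δp53Δ/Δ, 9.79, 9.75 and 9.86 in p53Δ/Δ, 9.64, 10.32 and 10.18 in Ezh2Δ/Δ, and 9.29, 9.65 and 9.61 in WT cells. The Ezh2Δ/Δp53Δ/Δ arrays were the lowest, and their range did not overlap that of any other genotype. The signal of the median member exceeded that of 99.3% to 99.4% of tested features on every array, a position on the array and not a comparison of transcript levels. In these bulk samples fewer cells of a type and less RNA per cell cannot be told apart.

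**Figure D1:**
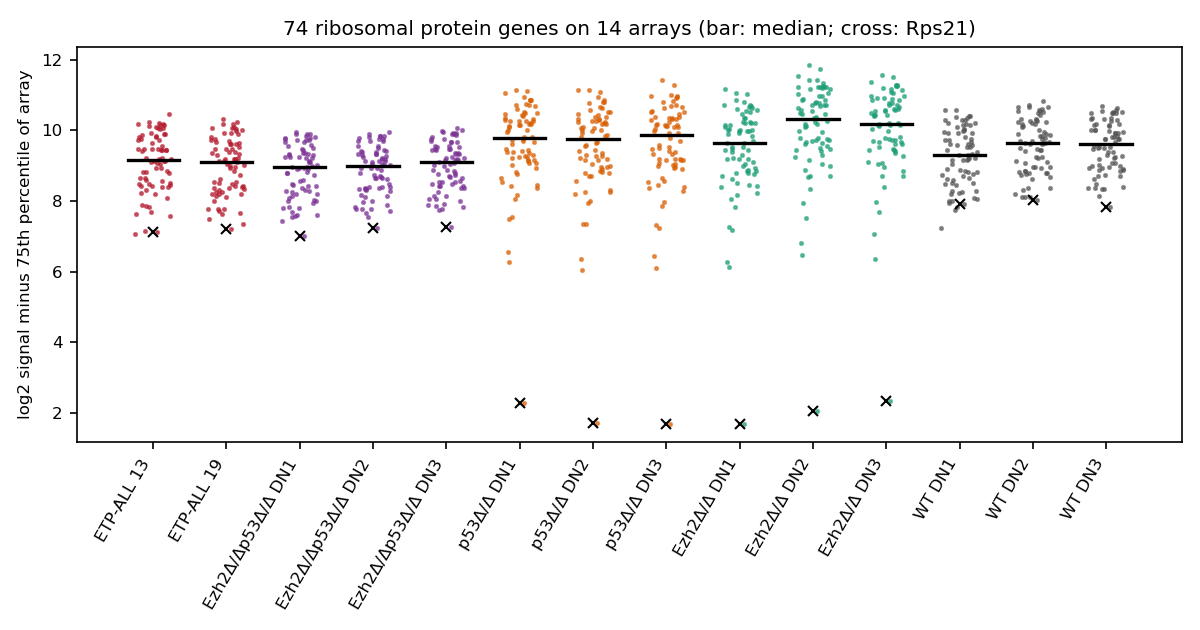
Signal of the 74 ribosomal protein genes on each array, as log2 signal minus the array's 75th percentile; each point is a gene, each bar the median of the 74 and each cross Rps21. The Ezh2Δ/Δp53Δ/Δ medians (8.95 to 9.09) lie below the WT medians (9.29 to 9.65), and Rps21 drops out of the cloud on the 6 slide 2 arrays.

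The comparison of Ezh2Δ/Δp53Δ/Δ with WT cells asks how the family stands when both genes are lost before leukemia. On the 75th percentile scale all 74 members had a lower estimate in Ezh2Δ/Δp53Δ/Δ cells. The median difference was -0.55 log2, with single members between -1.05 and -0.22, against a median of -0.11 over all features, of which 56.4% were below 0. By limma 46 members had an unadjusted p under 0.05, and the share of all features with such a p is not given here. Only 2 members passed the test, both lower. With Benjamini-Hochberg adjustment over all features, 2.70% of members were called against 7.2% of all features (3.48% lower). The count depended on the setting: 14 members (18.9%, against 10.8% of features) were called among features above background on all 14 arrays, and 26 (35.1%, against 8.2%) with an intensity trend in the prior variance. In 58 of 74 members (78.4%) the 3 Ezh2Δ/Δp53Δ/Δ arrays lay below all 3 WT arrays, against 22.3% of features.

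This shared shift rested on the scale. After quantile normalization the median member differed by -0.02 and 39 of 74 members were below 0. That method gives equal ranks equal values, and the median member exceeded 99.3% to 99.4% of tested features on every array. Its median near 0 therefore largely restates this nearly constant rank. After cyclic loess the median was -0.28 with 73 of 74 below 0. The 75th percentile of the signal moved with the groups too: it was 446 to 524 on the Ezh2Δ/Δp53Δ/Δ arrays against 271 to 277 on the WT arrays, and its part in the family's shift was not tested. By stage the median difference was -0.40 at DN1 (70 of 74 members lower), -0.68 at DN2 and -0.57 at DN3 (74 of 74 each), the last 2 between arrays of the same slide. The 9 NK and innate lymphoid markers summed to 239 to 711 in Ezh2Δ/Δp53Δ/Δ against 62.5 to 455 in WT cells, with 2 to 9 of them above background on single arrays of either group and Klrd1, Klrb1c, Ncr1 and Klra7 not above it at DN2 and DN3 in either, and the 6 dendritic markers summed to 267 to 282 against 374 to 498, with 5 or 6 and 4 to 6 of them above background. The 6 B lineage markers summed to 4.48 to 7.92 in Ezh2Δ/Δp53Δ/Δ and 4.77 to 6.15 in p53Δ/Δ cells, against 23.1 to 54.5 in Ezh2Δ/Δ and 8.81 to 13.0 in WT cells, with 1 to 5 of them above background on single arrays, Pax5 not above it on any Ezh2Δ/Δp53Δ/Δ array and Cd79a not at DN2 and DN3 in any genotype. The part of other cells in the result was not tested.

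The called members were Rpl35a and Rpl37a. Rpl35a, a large-subunit protein whose human gene is mutated in Diamond-Blackfan anaemia, an inherited failure of red cell production, read 7.79, 7.78 and 8.07 at DN1, DN2 and DN3 in Ezh2Δ/Δp53Δ/Δ, against 8.75, 9.12 and 8.93 in WT cells. The groups did not overlap, and the difference was -1.05 ± 0.23 (SE, adjusted p = 0.0342 by limma), 2.07-fold lower. Rpl37a, a zinc-binding large-subunit protein, read 9.77, 9.57 and 9.77 in Ezh2Δ/Δp53Δ/Δ against 10.58, 10.54 and 10.49 in WT cells, a difference of -0.83 ± 0.20 (adjusted p = 0.0415). Rpl35a was also called after quantile normalization (-0.71, adjusted p = 0.0488) and cyclic loess (-0.84, adjusted p = 0.0410), where Rpl37a was not (adjusted p = 0.453 and 0.201). Neither was called within slide 1 (adjusted p = 0.169 for Rpl35a and 0.195 for Rpl37a) or without the 6 slide 2 arrays (0.0972 and 0.122), where the differences were -1.10 and -0.85, and -1.05 and -0.83. Rpl35a was not called without any 1 of the WT or Ezh2Δ/Δp53Δ/Δ arrays, nor without Ezh2Δ/Δ DN3, with differences of -1.13 to -0.92 and an adjusted p of up to 0.166. Rpl37a kept its call only without p53Δ/Δ DN1, and elsewhere had differences of -0.89 to -0.72 and an adjusted p of up to 0.192.

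The next lowest members were Rpl39 (-0.86 ± 0.24, adjusted p = 0.0611), Rpl34 (-0.81 ± 0.24) and Rpl24 (-0.79 ± 0.24). Among the smallest differences were those of Rps2 (-0.29 ± 0.26), Rpl7 and Rpl7a (-0.23 each) and Rpl28 (-0.22 ± 0.29). Large-subunit members had a median of -0.49 and small-subunit members of -0.59. Of 153 member probes above background on all arrays, 150 were lower in Ezh2Δ/Δp53Δ/Δ than in WT cells, and no member had probes that went opposite ways by more than 0.5.

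Each single deletion was on slide 2 and WT was not, so the comparisons of Ezh2Δ/Δ and p53Δ/Δ with WT cannot be told apart from the slide. Probes of the same gene went separate ways there. In p53Δ/Δ against WT, 11 of 49 members with several probes had probes that differed by more than 1 log2 in their change, and in Ezh2Δ/Δ against WT 13 of 49; in Ezh2Δ/Δp53Δ/Δ against WT and in Ezh2Δ/Δ against p53Δ/Δ the count was 0 of 49. The widest case was Rpl17, whose 7 probes changed by between -7.16 and -0.22 in p53Δ/Δ against WT. The 4 probes of Rpl7a spanned -6.53 to 0.14. The largest calls of the family lie in the same comparisons, and several rest on 1 probe.

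**Figure D2:**
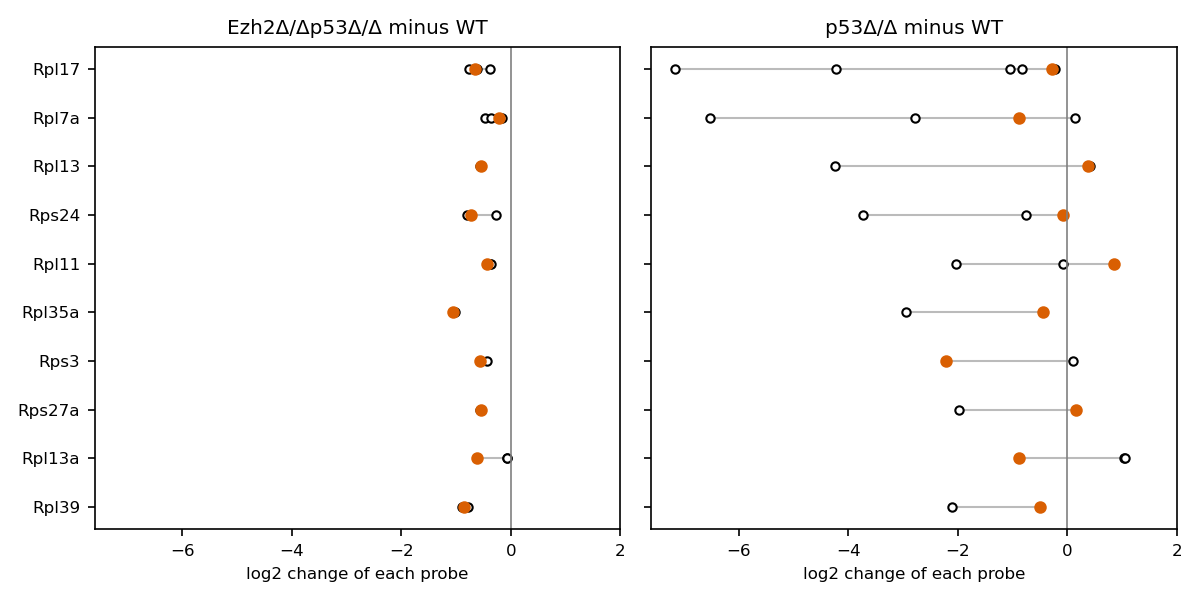
Log2 change of every probe of 10 of the 11 members whose probes differ by more than 1 in p53Δ/Δ minus WT; filled points are the probes used, open points the others, and grey lines join probes of a gene. The probes lie together in Ezh2Δ/Δp53Δ/Δ minus WT and span up to 6.93 log2 in p53Δ/Δ minus WT.

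In p53Δ/Δ against WT 10 members were called higher and 6 lower (21.6% of members against 36.5% of features, of which 16.7% higher and 19.8% lower), with a median of 0.23 against 0.09 over all features. In Ezh2Δ/Δ against WT 29 were called higher and 5 lower (45.9% against 35.3% of features, of which 17.5% higher and 17.8% lower), with a median of 0.54 against 0.16. The 2 comparisons share the WT arrays. Rps21, a small-subunit protein with 1 probe, read 2.27, 1.72 and 1.68 in p53Δ/Δ and 1.70, 2.06 and 2.33 in Ezh2Δ/Δ, against 7.92, 8.03 and 7.82 in WT cells. Every slide 2 array was low, while ETP-ALL cells (7.11 and 7.20) and Ezh2Δ/Δp53Δ/Δ cells (up to 7.26) lay less than 1 below WT. The changes were -6.03 ± 0.26 in p53Δ/Δ and -5.89 ± 0.26 in Ezh2Δ/Δ against WT. Rpl4, also with 1 probe, changed by -2.01 ± 0.21 in p53Δ/Δ and -1.82 ± 0.21 in Ezh2Δ/Δ.

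Rps3, a small-subunit protein at the mRNA entry channel, changed by -2.22 ± 0.23 in p53Δ/Δ and -1.95 ± 0.23 in Ezh2Δ/Δ against WT on the probe used, while its other probe changed by 0.11 in p53Δ/Δ. Rpl11 changed by 0.86 ± 0.21 in p53Δ/Δ and 1.05 ± 0.21 in Ezh2Δ/Δ on the probe used, and by -0.41 and -0.27 on the mean of its 3 probes. Rpl13a changed by -0.88 ± 0.20 in p53Δ/Δ and -0.84 ± 0.20 in Ezh2Δ/Δ on the probe used, against changes of up to 1.05 on its other probes in p53Δ/Δ. The other calls above 0 in p53Δ/Δ reached 1.07 ± 0.20 for Rpl19 (1.21 ± 0.20 in Ezh2Δ/Δ), with Rpl29 at 0.78 among them. In Ezh2Δ/Δ Rpl29 at 1.16 and Rpl3 at 1.09 were among the highest after Rpl19. Rpl5, with 1 probe, changed by -0.71 ± 0.21 in p53Δ/Δ and -0.62 ± 0.21 in Ezh2Δ/Δ.

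Ezh2Δ/Δ and p53Δ/Δ cells can be compared on 1 slide. All 74 members had a higher estimate in Ezh2Δ/Δ than in p53Δ/Δ cells, with a median of 0.27 against 0.08 over all features. None passed the test (0 of 74, against 3.98% of features), and 5 had an unadjusted p under 0.05 (share of features not given here). In 13 of 74 (17.6%) the 3 Ezh2Δ/Δ arrays lay above the 3 p53Δ/Δ arrays, against 11.6% of features. The stages did not behave alike: 57 of 74 members were lower in Ezh2Δ/Δ at DN1 (median -0.16), while 73 were higher at DN2 (0.55) and 74 at DN3 (0.42). The widest differences were those of Rpl24 (0.76 ± 0.24, adjusted p = 0.125) and Rpl35a (0.72 ± 0.23, adjusted p = 0.132). The estimate for Rpl22 was 0.00 ± 0.26 on the probe used and 0.78 on its other probe.

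Cells without p53 were thus set against p53-intact cells in 2 comparisons that share no array: Ezh2Δ/Δp53Δ/Δ against WT and p53Δ/Δ against Ezh2Δ/Δ. Ezh2 status differs as well in each, in opposite ways, so neither measures loss of p53 alone. An Ezh2 effect cancels in their average only if it is the same with and without p53. Their average compares 6 arrays without p53 with 6 that keep it, and a shift common to all slide 2 arrays cancels in it; this contrast was chosen after the data were seen. All 74 members were below 0 on the 75th percentile scale, with a median of -0.41 against -0.07 over all features. The test called 5 members lower and none higher (6.76% against 7.92% of features, 4.79% lower). They were Rpl35a (-0.88 ± 0.17, adjusted p = 0.0190), Rpl24 (-0.78 ± 0.17, adjusted p = 0.0317), Rpl39 (-0.70 ± 0.17, adjusted p = 0.0392), Rps29 (-0.59 ± 0.14) and Rpl37a (-0.57 ± 0.14), the last 2 with an adjusted p of 0.0431 each. Of 15 other settings, 10 kept the call of Rpl35a, 3 that of Rpl24, 2 that of Rpl39 and 0 those of Rps29 and Rpl37a.

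The probes of a gene lay close together in this contrast. The probes of Rpl35a gave -0.88 and -0.93, those of Rpl24 gave -0.78 and -0.88, and those of Rpl39 gave -0.70, -0.70 and -0.65. Of 153 member probes, 148 were below 0. On the probes used, the least changed members were Rpl22 (-0.17 ± 0.18, against -0.43 on its other probe), Rpl7 (-0.23 ± 0.16) and Rpl19 (-0.23 ± 0.14).

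Here too the family's median went to 0.00 after quantile normalization (37 of 74 members below 0), as its rank was nearly constant. After cyclic loess the median was -0.15. Rpl35a kept its call in both, at -0.53 ± 0.12 (adjusted p = 0.0401; 1.35% of members called against 7.73% of features) and -0.66 ± 0.14 (adjusted p = 0.0264; 2.70% against 7.99%). With each array centred on its member median, Rpl35a was at -0.51 ± 0.14 (adjusted p = 0.0514) and no member was called, against 11.5% of features. Without Ezh2Δ/Δp53Δ/Δ DN2, Ezh2Δ/Δ DN2, Ezh2Δ/Δ DN3 or WT DN2 it was no longer called, at -0.82, -0.84, -0.83 and -0.85 with adjusted p between 0.0510 and 0.0725. Leaving out 1 array at a time gave 0 to 4 calls in the family, 0 without Ezh2Δ/Δp53Δ/Δ DN2, Ezh2Δ/Δ DN2, Ezh2Δ/Δ DN3 or WT DN2. In these fits 1.57% to 6.85% of all features were called.

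**Figure D3:**
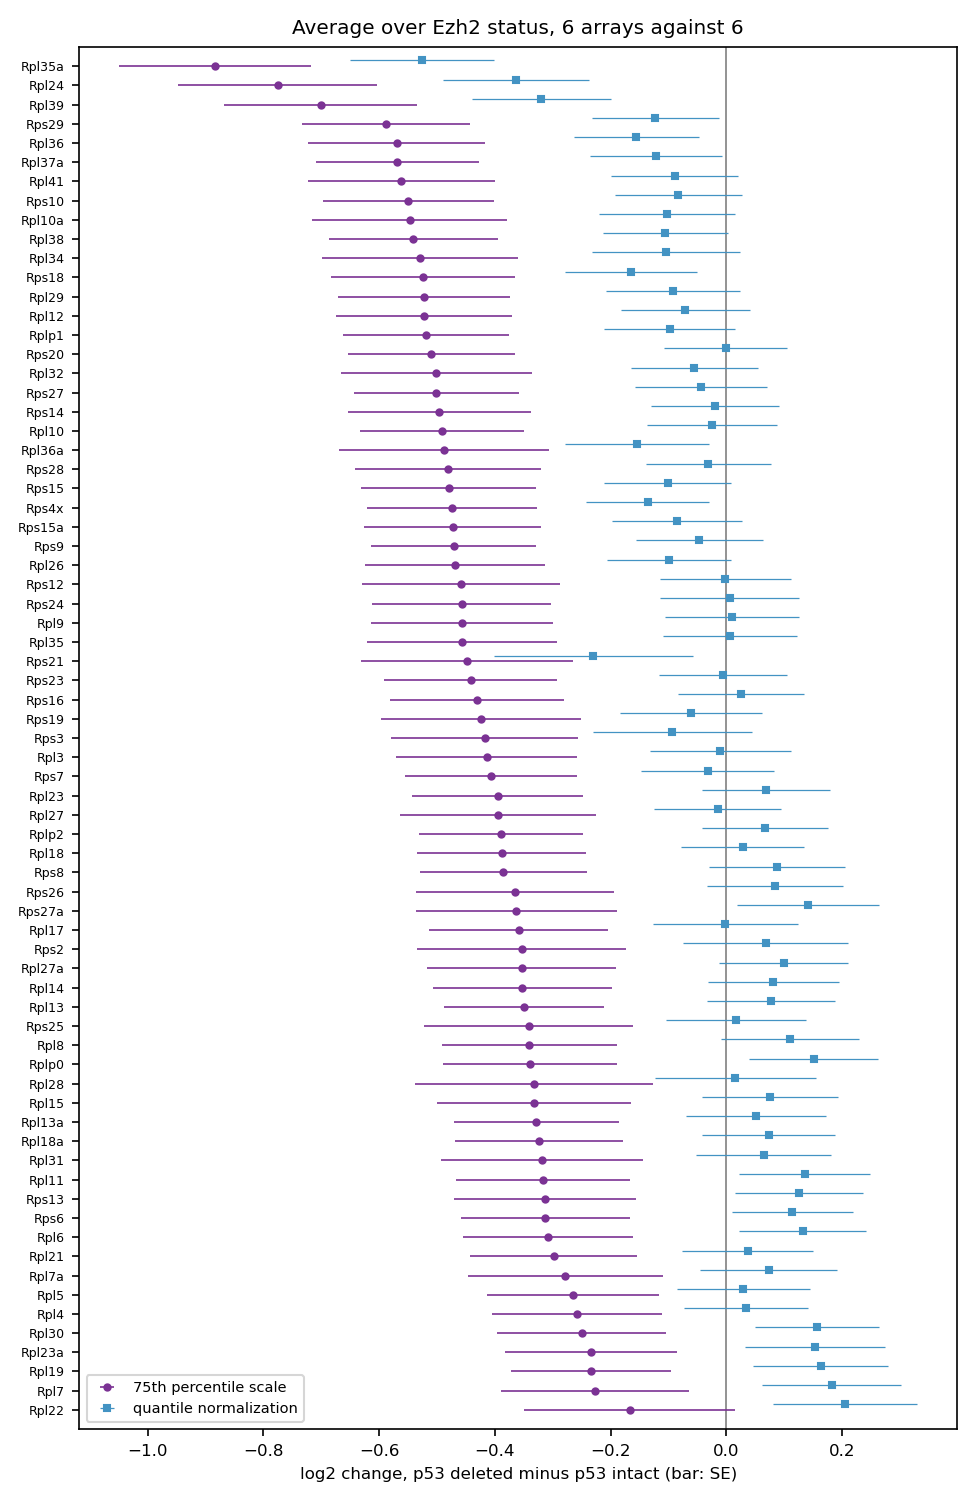
Log2 change of 71 of the 74 genes in p53-deleted against p53-intact arrays, averaged over Ezh2 status (6 arrays against 6; bars are SE), on the 75th percentile scale (circles) and after quantile normalization (squares). The whole family shifts between the scales (medians over the 74 of -0.41 and 0.00), and Rpl35a lies lowest on both.

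Set against the rest of the family on the same array, which no constant scaling of an array can move, the probes used for Rpl35a and Rpl24 sorted the arrays by p53. Rpl35a lay at -1.54 and -1.62 relative to the member median in ETP-ALL, at -1.16, -1.19 and -1.02 in Ezh2Δ/Δp53Δ/Δ and at -1.25, -1.19 and -1.50 in p53Δ/Δ cells, against -0.92, -0.87 and -0.74 in Ezh2Δ/Δ and -0.55, -0.53 and -0.69 in WT cells. Every p53-deleted array was below every p53-intact one. Rpl24 lay at -0.51 and -0.61 in ETP-ALL, at -0.47, -0.64 and -0.33 in Ezh2Δ/Δp53Δ/Δ and at -0.59, -0.60 and -0.88 in p53Δ/Δ cells, against -0.24, -0.24 and -0.04 in Ezh2Δ/Δ and -0.25, -0.23 and -0.12 in WT cells. Again the groups did not overlap. Over the 12 non-leukemic arrays these were the 2 members (2.70%) split in that direction, against 0.177% of features. In the opposite direction 0 members and 2.36% of features were split. This centring put the median of all features at 0.31 in the p53 average, which bears on both feature shares. Both genes were picked for their low values without p53, so these levels are a description. The split over the 12 non-leukemic arrays did not hold on the other probe of either gene. The other Rpl35a probe lay at -2.76, -2.77 and -2.53 in Ezh2Δ/Δp53Δ/Δ against -2.24, -2.12 and -2.18 in WT cells, and at -5.22, -5.39 and -5.60 in p53Δ/Δ against -4.90, -4.89 and -4.62 in Ezh2Δ/Δ cells, low on all arrays of slide 2. The other Rpl24 probe lay at -1.52, -1.48 and -1.15 in Ezh2Δ/Δp53Δ/Δ against -1.12, -0.95 and -0.84 in WT cells, and at -1.86, -1.78 and -2.07 in p53Δ/Δ against -1.41, -1.38 and -1.16 in Ezh2Δ/Δ cells. Within each pair of genotypes, both probes of both genes were lower without p53 with no overlap.

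The same average for Ezh2 (Ezh2Δ/Δp53Δ/Δ and Ezh2Δ/Δ against p53Δ/Δ and WT) gave a family median of -0.14 against -0.03 over all features, with 70 of 74 members below 0. No member was called (against 3.95% of features) and none had an unadjusted p under 0.05 (against 20.2% of features). The largest differences were those of Rpl17 (-0.31 ± 0.15) and Rps21 (-0.31 ± 0.18).

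All 8 genes listed as members of the 5S particle or as Mdm2 binders (Rpl5, Rpl11, Rpl23, Rpl26, Rps3, Rps7, Rps14 and Rps27a) were below 0 in Ezh2Δ/Δp53Δ/Δ against WT, with a median of -0.55, as in the whole family, and none was called. In p53Δ/Δ against WT the 8 had a median of -0.11, against 0.23 in the family, with 4 above 0 and 4 below. Of the 8, 1 was called higher and 2 lower, where 36.5% of all features were called. In Ezh2Δ/Δ against WT their median was 0.14, against 0.54 in the family, with 4 above 0 and 4 below. There 2 were called higher and 2 lower, where 35.3% of all features were called. These comparisons cannot be told apart from the slide, and probes of Rps3 and Rpl11 went separate ways in them. Rpl5, which carries 5S ribosomal RNA, read 7.54, 7.66 and 7.74 in Ezh2Δ/Δp53Δ/Δ against 7.99, 8.12 and 8.15 in WT cells, without overlap. Rpl11, its partner in that particle, read 9.59, 9.45 and 9.66 against 9.76, 9.97 and 10.29. Rps14, with 1 probe, a small-subunit protein whose human gene lies in the region lost in the 5q- syndrome, read 9.91, 9.89 and 9.99 against 10.59, 10.71 and 10.69. Rps7 and Rpl23, which bind Mdm2, read 8.19, 8.29 and 8.37 against 8.81, 8.96 and 8.90, and 9.33, 9.19 and 9.37 against 9.62, 9.77 and 9.93.

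Of the 4 genes mutated in human T cell leukemia, none was called in Ezh2Δ/Δp53Δ/Δ against WT, and all were below 0 (median -0.44). Rpl10, at the subunit joining step, read 9.67, 9.69 and 9.69 in Ezh2Δ/Δp53Δ/Δ against 9.95, 10.25 and 10.32 in WT cells. Rpl22 read 8.58, 8.65 and 8.67 against 8.72, 9.24 and 8.95. The groups did not overlap for either gene. Of 19 genes mutated in human Diamond-Blackfan anaemia, all were below 0 (median -0.59), as were all 74 members, and 1 was called, Rpl35a (5.26%, against 7.2% of features). Rps19, the gene most often mutated in that disease, read 7.70, 8.13 and 8.24 against 8.20, 8.86 and 8.70. The P stalk proteins Rplp0, Rplp1 and Rplp2, which recruit the elongation factors, differed by between -0.64 and -0.49, and the X-linked Rpl10, Rpl36a, Rpl39 and Rps4x by between -0.86 and -0.49, with 0 called in each list.

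Genes around the ribosome did not share this direction. In Ezh2Δ/Δp53Δ/Δ against WT the 14 other genes with 5′ TOP mRNAs (elongation factors, Tpt1, Npm1 and the like) had a median of 0.03 with 6 below 0. The 76 mitochondrial ribosomal protein genes had a median of 0.13 with 21 below 0, the 25 genes of ribosome biogenesis and Myc a median of 0.26 with 7 below 0, and the 9 regulators of TOP mRNAs a median of 0.40 with 1 below 0. None of these genes was called. Beside the family median of -0.55 these medians are values on the 75th percentile scale alone, and the difference between the lists was not tested.

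Paralogues outside the name rule were measured too. Rpl22l1, the paralogue of Rpl22, which Rpl22 represses in mouse cells, read 5.19 and 4.83 in ETP-ALL, 6.28, 6.17 and 6.92 in Ezh2Δ/Δp53Δ/Δ and 6.43, 6.64 and 5.85 in p53Δ/Δ, against 7.24, 8.11 and 8.45 in Ezh2Δ/Δ and 7.55, 8.04 and 7.82 in WT cells. All p53-deleted arrays lay below all p53-intact ones, and the leukemias lowest of all. In the p53 average the difference was -1.49 ± 0.24 (adjusted p = 0.0129), 2.80-fold lower. It was called on all 3 other scales (-1.34 to -1.11) and without each array in turn (-1.63 to -1.29, adjusted p up to 0.0488). Between the slide 2 genotypes Rpl22l1 was 1.63 ± 0.35 higher in Ezh2Δ/Δ than in p53Δ/Δ cells (adjusted p = 0.0361), a call lost in 9 of 12 fits without 1 array (adjusted p of 0.0507 to 0.148), when the 6 arrays of that slide were fitted alone (adjusted p = 0.192), with slide as a fixed block (0.0619), with the percentile over detected probes (0.0527) and with no filter (0.0596). In ETP-ALL it differed by -1.56 ± 0.41 from the Ezh2Δ/Δp53Δ/Δ DN2 level and did not pass the test (adjusted p = 0.0882 by limma). That level is fitted from genotype and stage over all arrays and is not the single DN2 array, which read 6.17. Rpl22 itself read 8.94 and 8.99 in ETP-ALL, above the 3 Ezh2Δ/Δp53Δ/Δ values.

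Rpl39l, a paralogue of Rpl39 known for its expression in testis, was not well above background on any WT array. It read -1.74, -1.78 and -0.87 in Ezh2Δ/Δp53Δ/Δ, -0.72, -1.15 and -0.61 in p53Δ/Δ and -3.11, -2.63 and -1.44 in Ezh2Δ/Δ, against -4.17, -5.07 and -5.42 in WT cells. It was above background on 3 of 3, 3 of 3 and 1 of 3 arrays in the deleted genotypes. For a rough comparison, the WT level was set at the lowest signal of any probe above background on each array. With that level Rpl39l was 3.88-fold higher in Ezh2Δ/Δp53Δ/Δ and 6.03-fold higher in p53Δ/Δ than in WT cells. The lowest such signal is a lenient floor, so these folds are not strict lower limits. The p53Δ/Δ and Ezh2Δ/Δ arrays lay on slide 2 and the WT arrays on slide 1, so their differences from WT cannot be told apart from the slide. Rpl39l passed the filter only through the groups where it was high, so no test of these differences is given. The ETP-ALL mice went opposite ways, with 5.72 in mouse 13 and -4.94, not above background, in mouse 19.

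Rps27l, a paralogue of Rps27 and a transcriptional target of p53, read 6.18 and 6.61 in ETP-ALL. At DN1, DN2 and DN3 it read 6.21, 6.91 and 6.79 in Ezh2Δ/Δp53Δ/Δ and 6.84, 6.17 and 6.82 in p53Δ/Δ, against 5.36, 7.52 and 7.70 in Ezh2Δ/Δ and 5.57, 7.57 and 7.14 in WT cells. At DN1 it was higher, and at DN2 and DN3 lower, in each p53-deleted genotype than in each p53-intact one. From DN1 to DN2 it differed by 0.70 in Ezh2Δ/Δp53Δ/Δ and -0.68 in p53Δ/Δ, against 2.16 in Ezh2Δ/Δ cells and a like step in WT cells; the interaction was -2.07 ± 0.53 with an adjusted p of 0.319.

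**Figure D4:**
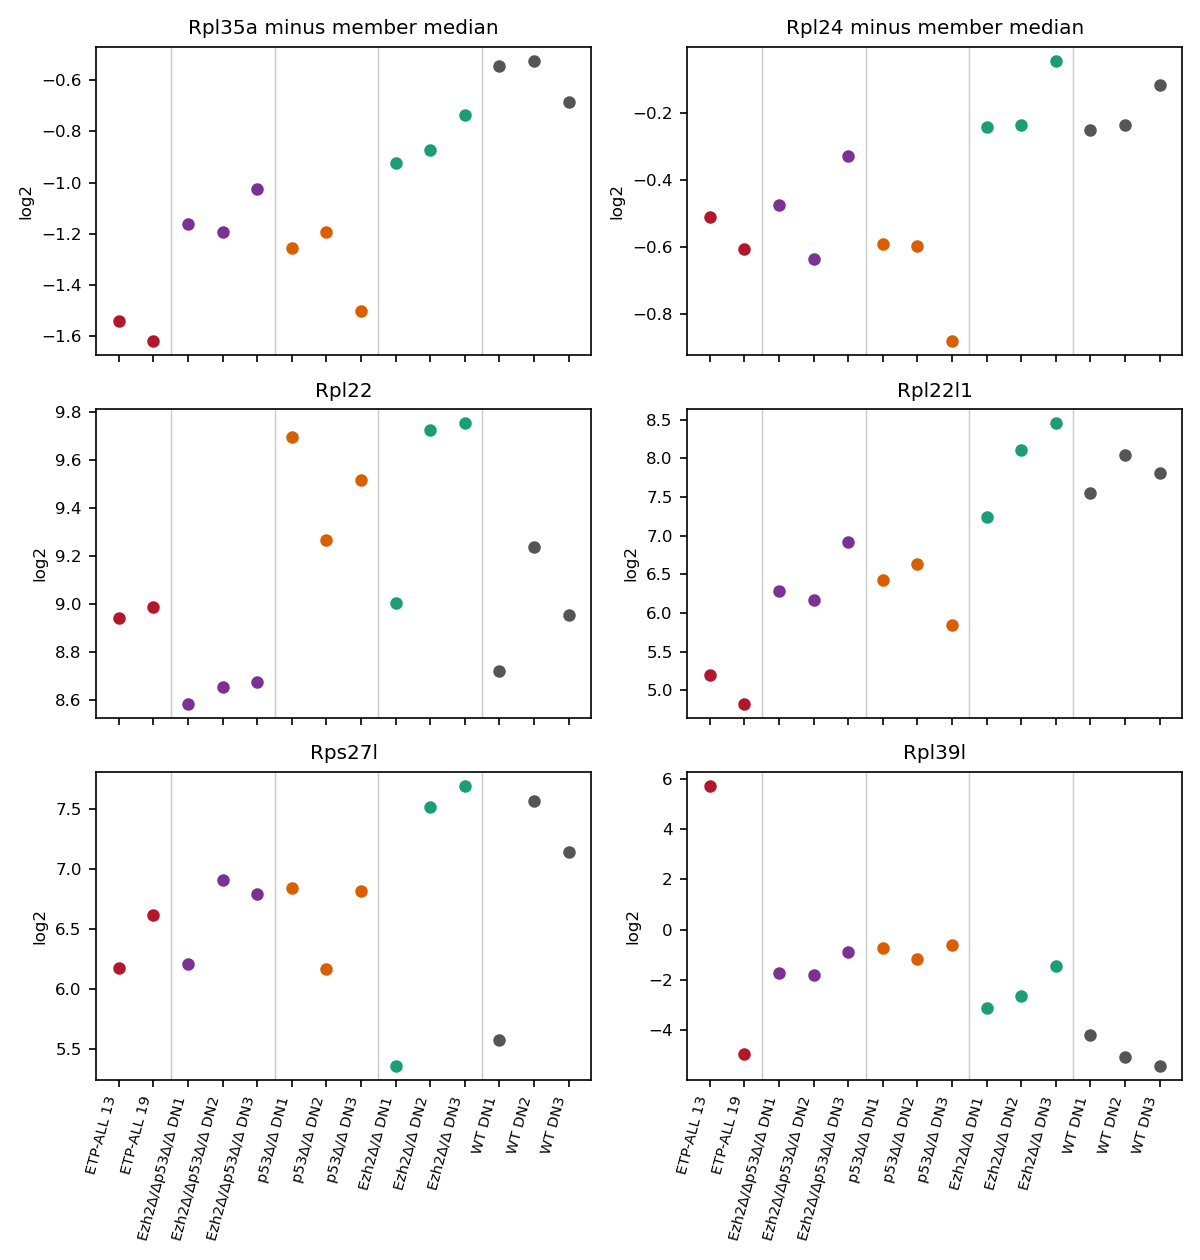
Values of 6 genes on each array; Rpl35a and Rpl24 are given as log2 difference from the median ribosomal protein gene of that array, the other 4 as log2 signal minus the array's 75th percentile. Points are single arrays, coloured by group, and vertical lines separate the groups; on the probes shown, Rpl35a, Rpl24 and Rpl22l1 are lower on every array without p53, ETP-ALL included, than on any array of Ezh2Δ/Δ or WT cells.

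Along the stages the family moved little. From DN1 to DN2, 73 of 74 members had an estimate above 0, with a median of 0.21 against 0.14 over all features. None was called (against 1.4% of features) or had an unadjusted p under 0.05 (share of features not given here). Among the largest were Rps2 (0.49 ± 0.22) and Rpl28 (0.44 ± 0.25). Mitochondrial ribosomal protein genes had a median of 0.54 with 75 of 76 above 0, and genes of ribosome biogenesis and Myc a median of 0.67 with 24 of 25 above 0, with 0 called in both lists. From DN2 to DN3 the family median was 0.03 against 0.02, with differences between -0.11 and 0.17, the highest that of Rpl11, and no call (against 0.0222% of features).

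The step from DN1 to DN2 differed by genotype. The family median was 0.01 in Ezh2Δ/Δp53Δ/Δ (39 of 74 members higher at DN2, arrays of different slides) and -0.10 in p53Δ/Δ cells (12 higher), against 0.60 in Ezh2Δ/Δ (74 higher) and 0.30 in WT cells (72 higher). In a fit with an interaction of p53 deletion and stage, added after the data were seen, the step was lower without p53 in all 74 members (median -0.47 against -0.10 over all features). No member was called (lowest adjusted p 0.382 by limma), against 0.0037% of features. An unadjusted p under 0.05 was found in 3 of 74 members, against 12.1% of features. Rpl36a (-0.81 ± 0.33) and Rpl31 (-0.78 ± 0.32) were among the 3. The family's interaction was -0.01 after quantile normalization and 0.22 after cyclic loess, so its direction depended on the scale. In 25 of 74 members (33.8%) the step was below 0 in both genotypes without p53 and above 0 in both with it, against 5.3% of features. Along the same step the summed NK and innate lymphoid markers were lower at DN2 than at DN1 in each genotype: 239.5 against 711 in Ezh2Δ/Δp53Δ/Δ, 180 against 643 in p53Δ/Δ, 532 against 801 in Ezh2Δ/Δ and 62.5 against 455 in WT cells. Their part in the step was not tested.

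**Figure D5:**
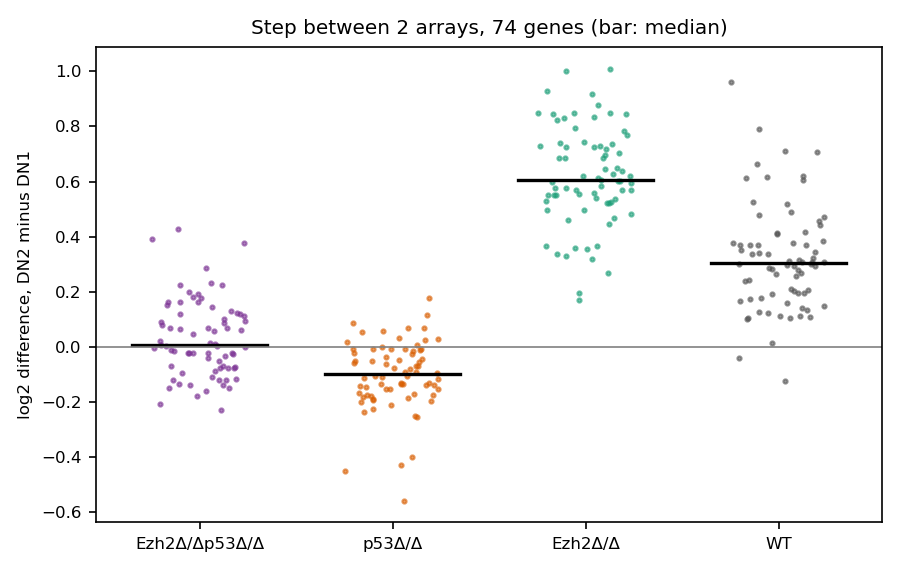
Difference between the DN2 and the DN1 array of each genotype for the 74 genes, in log2 signal minus the array's 75th percentile; points are genes and bars medians. The medians are 0.01 in Ezh2Δ/Δp53Δ/Δ and -0.10 in p53Δ/Δ cells, against 0.60 in Ezh2Δ/Δ and 0.30 in WT cells; there is 1 array at each end of a step.

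The leukemias were set against Ezh2Δ/Δp53Δ/Δ DN2 cells. They lay alone on slide 4, so leukemia and slide cannot be told apart. In the additive fit the family median differed by 0.09 against -0.01 over all features, with 47 members above 0. Set against the single Ezh2Δ/Δp53Δ/Δ DN2 array, 62 members were higher in mouse 13 and 56 in mouse 19. The median differences there were 0.23 and 0.12, against 0.02 and -0.03 over all features. No member was called (against 2.48% of features). An unadjusted p under 0.05 was found in 1 member (share of features not given here), the large-subunit Rpl15 (-0.63 ± 0.28, adjusted p = 0.267 by limma). Rps19 had the lowest estimate, -0.68 ± 0.32, and read 7.15 and 7.77 in ETP-ALL against 8.13 in the Ezh2Δ/Δp53Δ/Δ DN2 array, and Rps2 followed at -0.45 ± 0.30. Rpl8 (0.47 ± 0.25) and Rpl7a (0.46 ± 0.31) had the highest. The genes of ribosome biogenesis and Myc lay lower in ETP-ALL, with a median of -0.42 and 21 of 25 below 0, none called.

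Over the 14 arrays the steadiest members were Rpl6 (SD 0.21), Rpl7 (0.23) and Rpl23 (0.24), and the most variable were Rps21 (2.84), Rps3 (0.94) and Rpl4 (0.92), each low on all slide 2 arrays. Many ribosomal protein genes have processed pseudogenes, and which transcripts besides the named gene a probe binds was not analysed here.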

How the data were processed

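Per the file headers, the deposited processed signal is an intensity that Feature Extraction 10.7.1.1 corrected for background and did not scale between arrays. The deposited value table, an alternative here, holds the same intensity on a linear scale divided by 1 constant per array, as found by comparison with the scanner files; the choice of that constant is not stated. Per the labels' protocols, 20 ng of RNA was labelled with Cy3.

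Control and outlier spots were left out, giving 55681 probes from 59305 spots. RefSeq accessions gave a symbol to 27656 probes and none to 28025. Features had to be well above background on at least 2 of 14 arrays, with 1 probe per gene. log2(signal) minus the 75th percentile was fitted with limma 3.58.1 in R 4.3.3, with genotype and stage as additive terms on the 12 non-leukemic arrays (6 residual and 2.92 prior degrees of freedom) and a leukemia term on all 14. Every adjusted p is limma's, Benjamini-Hochberg adjusted over all features, and a call is an adjusted p under 0.05. The fits were tested on simulated data. Alternatives covered scaling, background, filters, probe choice, prior, slide and each array. The number of arrays limits the precision.

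The genes named are the members called in a comparison, the 5 highest and 5 lowest of each, the 3 most and 3 least variable, a set tied to p53, leukemia and the P stalk, and genes of the lists; not all are printed. The members and lists were chosen with earlier results of these data known. The averages over p53 and Ezh2 status, the interaction and the fit without slide 2 were added after the data were seen. Values of 3 members are counted in the totals and not reported here.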

Additional observations from a re-analysis of the deposited data

Results flagged for a closer look

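In 25 of 74 ribosomal protein genes (33.8%) the DN2 array was below the DN1 array in Ezh2Δ/Δp53Δ/Δ and in p53Δ/Δ cells but above it in Ezh2Δ/Δ and in WT cells, against 5.3% of all features. The opposite arrangement was seen in 0 members and in 3.74% of features. For a single gene this opposition was not tested beyond the interaction fit given above, in which no member was called; it rests on 1 array at each end of each step and on the 75th percentile scale. Among 69 groups of 4 arrays examined at DN1, DN2 and DN3 for the family median, 18 named members and 4 paralogues, 0 held an array far enough from the other 3 to pass Dixon's test.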

How the results depend on the processing

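No paired analysis was possible because each genotype and stage has 1 array, and the ETP-ALL group of 2 arrays shares fewer than 2 replicate numbers with any other. The number of calls in Ezh2Δ/Δp53Δ/Δ against WT was 2 as reported, against 7.2% of features. It was 1 with the percentile over detected probes, quantile, cyclic loess or normexp normalization, or no filter. With features above background on all 14 arrays it was 14 (18.9%, against 10.8% of features), and with an intensity trend 26 (35.1%, against 8.2%). It was 0 with slide as a fixed block, within slide 1 or without slide 2. In p53Δ/Δ against WT, 16 calls (against 36.5% of features) became 32 with normexp, 26 with the trend and 25 with slide as a random block. In Ezh2Δ/Δ against WT, 34 (against 35.3% of features) became 18 with quantile and 17 with loess. For both single deletions the share of features called under the other settings is not given here, so these counts describe the settings and not the family. In ETP-ALL, 0 became 1 with normexp. In the p53 average, 5 (against 7.92% of features) became 0 centred on the member median (11.5%), 1 with quantile (7.73%) and 2 with loess (7.99%).

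The member median minus that of all features depended on the scale. For Ezh2Δ/Δp53Δ/Δ against WT, reported as -0.44, it was 0.0140 with quantile, 0.0112 with normexp and -0.0704 without the filter. For p53Δ/Δ against WT (0.14) it was -0.0960 with quantile and -0.0110 with normexp, and for Ezh2Δ/Δ against WT (0.37) -0.0541 with quantile, -0.0033 with loess and 0.0137 with normexp. For Ezh2Δ/Δ against p53Δ/Δ (0.19) it was 0.0050 with quantile, -0.0325 with loess, -0.0073 with normexp and 0.0031 without the filter. For DN2 against DN1 (0.07) it was -0.0929 with quantile, -0.1554 with loess and -0.0583 with normexp, and for ETP-ALL (0.10) -0.1971 without the filter. For the interaction (-0.38) it was 0.0125 with quantile and 0.1625 with loess, for the p53 average (-0.34) -0.0115 and -0.1444, and for the Ezh2 average (-0.11) 0.0305 with quantile. On the mean of its probes Rpl11 reversed, to -0.4121 in p53Δ/Δ and -0.2735 in Ezh2Δ/Δ. The causes were not tested.

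Leaving out 1 array at a time gave 0 to 2 calls in Ezh2Δ/Δp53Δ/Δ, 5 to 15 in p53Δ/Δ and 14 to 37 in Ezh2Δ/Δ against WT (5 and 14 without WT DN2), and 0 to 4 in the p53 average. The share of features called was 1.57% to 6.85% in the fits of the p53 average and is not given here for the others. The difference ranged from -0.4753 to -0.4007 in Ezh2Δ/Δp53Δ/Δ, 0.0899 to 0.2120 in p53Δ/Δ and 0.2789 to 0.5464 in Ezh2Δ/Δ against WT, 0.1049 to 0.3197 in Ezh2Δ/Δ against p53Δ/Δ, -0.0077 (without Ezh2Δ/Δ DN1) to 0.1484 in DN2 against DN1, -0.0329 to 0.0721 in DN3 against DN2, 0.0301 to 0.1286 in ETP-ALL, -0.4737 to -0.3142 in the interaction, -0.4226 to -0.3075 in the p53 average and -0.1554 to -0.0423 in the Ezh2 average.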
